A study of Drosophila melanogaster with 12 samples.

Results

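The spalt genes salm and salr, the Iroquois genes ara, caup and mirr, and the vein genes kn and bs are 7 transcription factor genes that pattern the dorsal appendages of the fly. They were found by symbol in a Release 6 gene table of 13922 protein-coding genes on the main chromosome arms. Each gene was taken with 20 kb on both sides, and the stretch between salr and salm and those between ara, caup and mirr were kept whole. These windows form 4 loci with a length of 444 kb in all. They held 29 of the 2171 regions of the authors' consensus list of Ultrabithorax (Ubx) binding in the haltere disc. Of the peaks called in each library they held 29 of 2869 in replicate 1, 26 of 2361 in replicate 2 and 43 of 3859 in replicate 3, a mean of 32.7 ± 9.07 (SD, n = 3).

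Ubx was immunoprecipitated with a polyclonal antibody to its N-terminal part, from crosslinked imaginal discs of wild-type Canton S larvae in the third instar, at the wandering stage, and the recovered DNA was sequenced (ChIP-seq). The 12 samples are ChIP and input of the haltere disc and of the wing disc, with 3 replicates of each. The 3 haltere ChIP libraries were used. The wing and input libraries were not analysed here, so the values describe occupancy in the haltere disc and no difference from the wing. A disc is a mixture of cell populations, and a peak does not show in which of them the site was bound. The labels do not say how many discs went into a library. With 1 group there was no comparison between conditions and no test was made; values are given by library, with their spread.

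Ubx is the Hox factor that sets the haltere, a small veinless balancing organ, apart from the wing. In the wing disc, salm and salr encode zinc-finger factors induced by the morphogen Dpp in the central blade, where they place veins. The Iroquois genes encode homeodomain factors of the TALE class that specify the notum and act in veins and sensory organs. The kn gene (also called collier) encodes a COE-family factor induced by Hedgehog signalling in the central intervein territory, and bs (blistered) encodes the fly serum response factor, which promotes intervein over vein fate. Ubx is known to keep salm off in the haltere blade.

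A consensus region lay in the window of 7 of the 7 genes; the same held for 29.4% of all protein-coding genes given the same 20 kb flanks. A region found in all 3 libraries lay in the window of 6 of 7, against 15.8% of all genes, and kn was the exception. Library by library, 6 of the 7 windows had a peak in replicate 1 (47.3% of all genes), 7 in replicate 2 (35.6%) and 7 in replicate 3 (49.7%). The neighbouring genes share their surroundings: 3 regions fell in more than 1 member window. The 7 genes are therefore not 7 separate observations. The median gene of the list had 4 consensus regions in its window, and the median of all genes was 0.

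The order of the windows by number of consensus regions was bs and mirr with 5 each, ara, caup and salr with 4 each, salm with 2 and kn with 1. Of all protein-coding genes, 3.25% had at least 5 regions in their window, 4.91% at least 4, 13.4% at least 2 and 29.4% at least 1. Regions in all 3 libraries numbered 3 at bs, 3 at mirr, 2 at ara, 2 at caup, 1 at salm, 1 at salr and 0 at kn. The windows of kn (74.4 kb) and bs (73.6 kb) are longer than the others, which are between 51.3 and 56.6 kb. Per 100 kb of window, mirr had 8.83 regions, caup 7.67, salr 7.30, ara 7.23, bs 6.79, salm 3.90 and kn 1.34, so bs, level with mirr by count, was below mirr, caup, salr and ara by density. The order also rests on the libraries used. Without replicate 3 the counts were 4 at bs, 3 at mirr, 2 at ara, 2 at caup, 1 at salr, 1 at salm and 0 at kn. Without replicate 1 they were 3 at each of bs, mirr, ara, caup and salr, and 1 at each of salm and kn. Without replicate 2 they were 5 at mirr, 4 at bs, 3 at each of ara and caup, 2 at each of salr and salm, and 0 at kn.

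At the spalt locus, Ubx regions lay between the 2 genes and at the outer end of salm, and none had its midpoint inside either gene. The locus spans 127 kb on chromosome arm 2L and held 9 consensus regions, of which 4 were in all 3 libraries. The gap between salr and salm is 60.7 kb long and held 7 of the 9, a count that fell to 3 without replicate 3 and to 4 without replicate 2. By library, the gap had 5, 7 and 10 peaks in replicates 1 to 3. The body of salr had 1 peak in replicate 1 and none in the others, and so did the body of salm. The 20 kb on the far side of salr had 1 peak, in replicate 3.

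The strongest spalt region, by mean rank of fold, lay in the gap 9132 bp from salr (chr2L:11382768-11383198). Its fold enrichment, the authors' ratio of ChIP signal over background at the peak summit, was 8.18, 7.01 and 13.5 in replicates 1, 2 and 3. It held ranks 121, 172 and 35 in the 3 lists. Ranked within each list, where 100 is the strongest peak, the percentiles were 95.7, 92.8 and 99.1, a mean of 95.9 ± 3.18 (SD, n = 3). It was above the 90th percentile in every library, and the 3 summits lay within 219 bp.

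A region at the outer end of salm was 646 bp wide (chr2L:11445613-11446258) and shared only its first 2 bp with the gene, so it is a region at the gene's edge and not inside it. Its percentiles of fold were 87.6, 75.1 and 94.1, with folds of 6.35, 5.08 and 8.64. Next to it, 1904 bp from the gene, lay a region (chr2L:11447518-11447955) that was found only by replicates 1 and 3. There the percentile was 96.7 in replicate 1 and 62.0 in replicate 3, and replicate 2 called no peak. The libraries therefore ordered these neighbouring sites differently: the distal one was the stronger in replicate 1 and the weaker in replicate 3. The gene table gives no strand, so which end of salm carries its start was not read from it.

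The other gap regions in all 3 libraries lay far from either gene. One was 26605 bp from salm (chr2L:11407073-11407706), with percentiles of 61.0, 71.1 and 85.1. Another was 22572 bp from salr (chr2L:11396208-11396368), and its percentiles were 1.90, 52.7 and 61.7. In replicate 1 that peak was among the weakest of the whole list, at rank 2815 of 2869. The remaining 4 gap regions were in 2 libraries each. They include a region in the long non-coding RNA gene lncRNA:CR43681, with percentiles of 77.3 in replicate 2 and 65.1 in replicate 3.

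**Figure D1:**
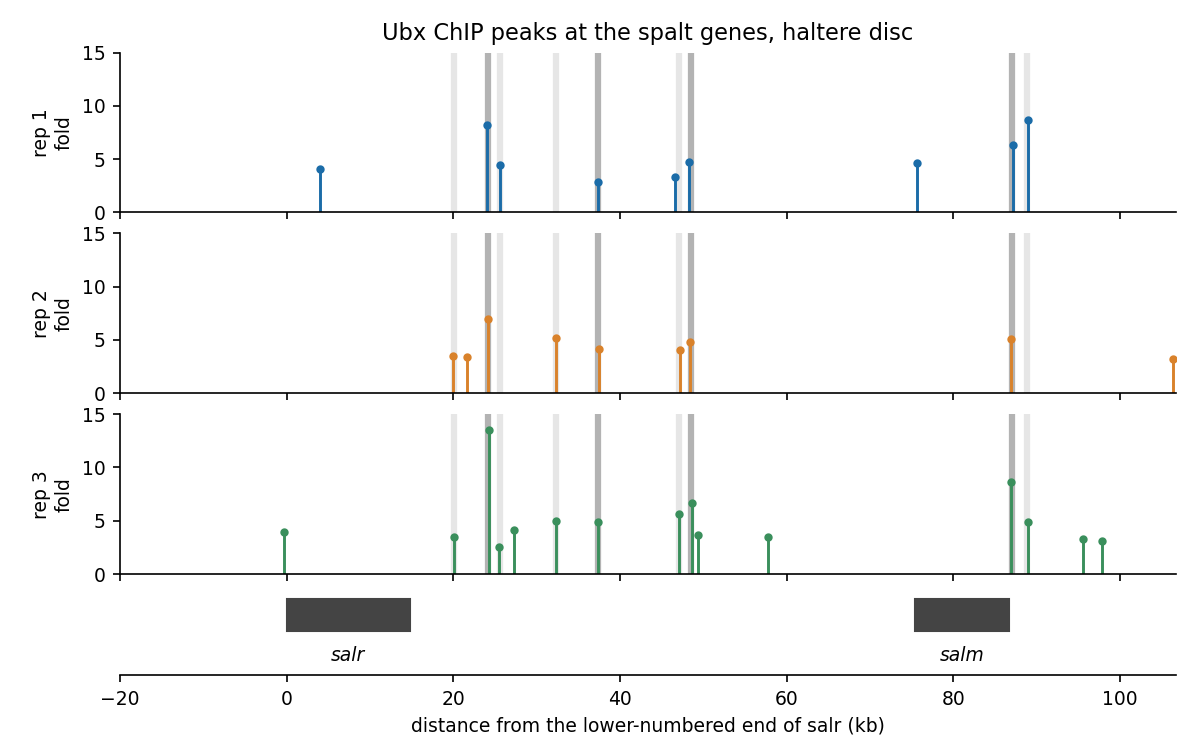
Ubx ChIP peaks at salr and salm. Each stem is a peak, placed by the distance of its summit from the lower-numbered end of salr (kb), and its height is the authors' fold enrichment (linear axis, 1 panel per replicate). Dark grey bars mark consensus regions in all 3 libraries and light grey bars those in 2; the boxes are the gene extents. The stems gather in the gap and at the outer end of salm, and the tallest in replicates 2 and 3 is the gap region 9132 bp from salr, at 7.01 and 13.5.

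The Iroquois locus had the most regions of the 4 loci, and its strongest lay just outside mirr. It spans 170 kb on 3L and held 14 consensus regions, 7 of them in all 3 libraries. The gap between caup and mirr, 71.8 kb long, held 7 regions, of which 2 were in all 3 libraries; it held 2 without replicate 3 and 4 without replicate 1. The 13.6 kb gap between ara and caup held 1, in replicates 2 and 3. The caup body held 2, the ara body 1 and the mirr body 0. Peaks in the mirr body were called only in replicate 3, which had 2 there, at percentiles of 2.24 and 30.0.

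The region 270 bp from mirr (chr3L:12692940-12693369) had the highest mean percentile of the 29. Its folds were 8.87, 9.91 and 12.1 in replicates 1 to 3, at ranks 83, 33 and 64. The percentiles were 97.1, 98.6 and 98.4, a mean of 98.1 ± 0.800 (SD, n = 3). All 3 libraries placed it in nearly the same position of their lists, and their summits fell within 32 bp.

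On the other side of mirr, 2 regions in all 3 libraries were weak or intermediate. The nearer, 3648 bp from the gene (chr3L:12713897-12714046), had percentiles of 6.87, 4.49 and 33.0 and the lowest mean of the 29, although its summits lay within 16 bp. The farther, at 5619 bp (chr3L:12715868-12716052), had percentiles of 49.1, 48.3 and 47.6. A low fold thus did not keep a site from being called in every library.

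Inside caup, 2 regions in all 3 libraries stood 496 bp apart. The stronger (chr3L:12616032-12616490) had folds of 6.10, 5.61 and 6.84 and percentiles of 84.9, 82.6 and 86.3, so the libraries gave it nearly the same rank. The weaker (chr3L:12615198-12615535) was at 38.6 in replicate 1 and at 82.5 and 84.0 in replicates 2 and 3. These were the only regions in all 3 libraries with their midpoint in a spalt or Iroquois gene.

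At ara, a region in all 3 libraries lay 279 bp from the gene (chr3L:12580194-12580393), with percentiles of 75.6, 30.1 and 86.5. The region inside ara (chr3L:12590892-12591030) was found by replicates 1 and 3 only. It was among the strongest peaks of replicate 1, with a fold of 9.66 at rank 53 of 2869, and was at percentile 55.9 in replicate 3. Replicate 2 called no peak in the ara body. Replicate 1 also had a peak at percentile 93.7 in the neighbouring gene sowah, inside the window of ara, and the nearest peak of another library was 5614 bp away.

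Of the 7 regions between caup and mirr, 3 lay in long non-coding RNA genes. The widest (chr3L:12643692-12644414, 723 bp), in lncRNA:CR32111 and 21894 bp from caup, was in all 3 libraries with percentiles of 32.3, 80.1 and 96.4. Replicate 1 was low and replicate 3 high at this site. A region in 2 libraries in the same RNA gene and 1 in lncRNA:CR43431 had percentiles between 29.7 and 62.5. Close to mirr, a region at 2852 bp (chr3L:12690550-12690787) was at 88.6 in replicate 1 and 39.6 in replicate 3, without a peak in replicate 2.

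**Figure D2:**
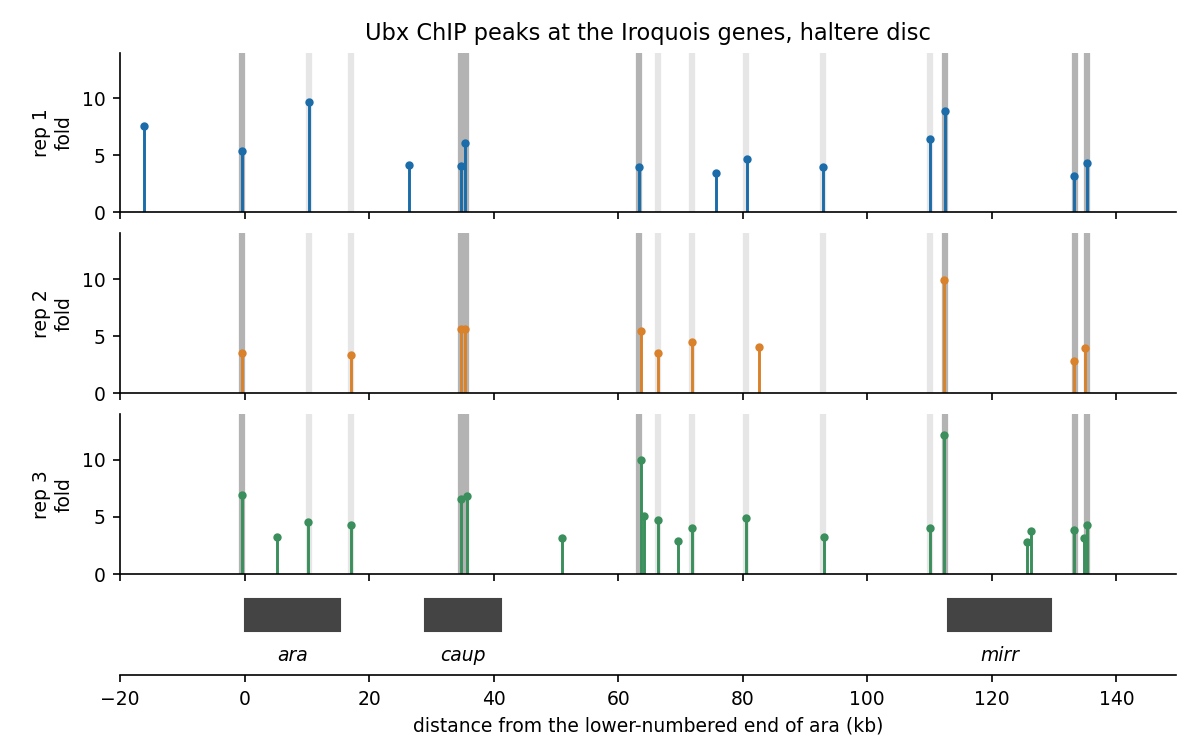
Ubx ChIP peaks at ara, caup and mirr. Stems, bars and boxes are as for the spalt genes, with distance in kb from the lower-numbered end of ara and the authors' fold enrichment on a linear axis for each replicate. The tallest stem in replicates 2 and 3 is the region 270 bp from mirr (9.91 and 12.1); in replicate 1 it is the region inside ara (9.66), which replicate 2 lacks.

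The kn gene was the only member without a region in all 3 libraries in its window. The gene is 34.4 kb long, the longest of the 7, and with its flanks makes a window of 74.4 kb on 2R. No library except replicate 3 called a peak inside it. The 2 peaks of replicate 3 were at percentiles 34.2 and 40.5 (folds of 3.92 and 4.09), and the nearest peaks of another library were 38258 and 33192 bp away. The only consensus region of the window (chr2R:14824011-14824289) lay 16950 bp from kn in lncRNA:CR45329. It was at percentile 75.5 in replicate 2 and 60.9 in replicate 3, and replicate 1 called no peak in the whole window. That window also holds 10 other protein-coding genes. The window had 1.34 consensus regions per 100 kb, close to the 1.60 of all main arms. Read depth is unknown, so these values say only that no peak passed the authors' threshold.

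At bs, 3 regions lay outside the lower-numbered end of the gene and 2 inside it. The locus spans 73.6 kb on 2R and held 5 consensus regions, 3 of them in all 3 libraries. By library, its window had 6 peaks in replicate 1, 5 in replicate 2 and 4 in replicate 3. This was the only locus where replicate 3, the longest list, had the fewest peaks. A wide peak of replicate 3 spanned separate peaks of replicate 1, as given below, so these counts are not counts of sites. The 20 kb on the higher-numbered side of bs had no peak in any library.

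The strongest bs region lay 52 bp outside the gene (chr2R:24342569-24342809). Its folds were 10.1 in replicate 1, 6.51 in replicate 2 and 6.94 in replicate 3, with percentiles of 98.6, 89.96 and 86.7 and summits within 23 bp. Another region in all 3 libraries lay 4501 bp out (chr2R:24338004-24338360), with percentiles of 97.7, 72.0 and 96.7. Replicate 2 was the low library at this site. The peak of replicate 3 there was 1109 bp wide and also covered a neighbouring region, 3923 bp from bs, that replicate 1 had called as a separate peak at percentile 8.71. That neighbour therefore has no value of its own in replicate 3.

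Within bs, 2 regions lay in the stretch that also carries the antisense RNA gene asRNA:bsAS. The first (chr2R:24365562-24365786) was in all 3 libraries at percentiles of 72.6, 12.4 and 13.1. The second (chr2R:24366703-24366776) was in replicates 1 and 2 only, at 42.9 and 6.48, and at 74 bp was the narrowest of the 29. Replicate 1 ranked the first site higher than both other libraries did, and the second higher than replicate 2 did.

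**Figure D3:**
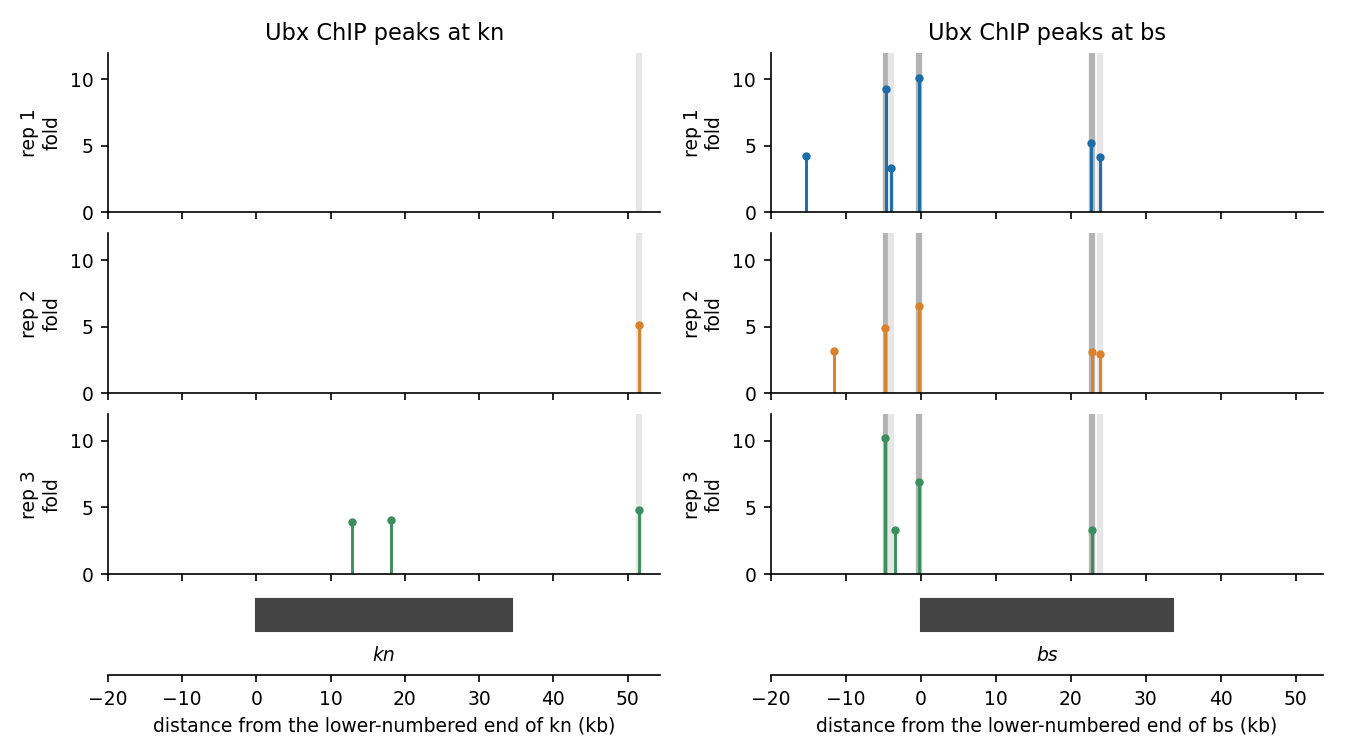
Ubx ChIP peaks at kn (left) and bs (right). Stems, bars and boxes are as for the spalt genes, with distance in kb from the lower-numbered end of each gene and the authors' fold enrichment on a linear axis. The kn panels show 0 peaks in replicate 1, 1 in replicate 2 and 3 in replicate 3, while every bs panel has its tallest stems at or below the lower-numbered end of the gene.

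A shared feature of salm, ara, mirr and bs, noticed after the positions were seen, was a region in all 3 libraries at a gene end. In these 4 of the 7 genes such a region lay within 500 bp of an end, as it did in 0.754% of all protein-coding genes. The count was 4 when a gene end was taken as 1 or 2 kb, a change that cannot lower it. It was also 4 without each replicate in turn, counting regions shared by the remaining libraries. That setting asks for fewer libraries, so it could hardly lower the count either. The count was 3 when each list was limited to its strongest 50% by fold. For salr, caup and kn no region in all 3 libraries lay that close. A consensus region overlapped the body of 4 of the 7 (ara, caup, bs and, by its 2 bp, salm), against 4.86% of all genes. This share, like the window shares above, was not matched for gene length, and the 7 genes are 11.3 to 34.4 kb long. Per 100 kb, the contrast was 3.62 regions in the bodies of the 7, by midpoint, against 1.33 inside all protein-coding genes.

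Position was then compared across the 3 kinds of sequence in the windows, assigning each region by its midpoint. The gaps between members made up 32.9% of the length and held 15 of the 29 regions. Gene bodies made up 31.1% and held 5, and the outer flanks 36.0% and held 9. In density this was 10.3 regions per 100 kb in the gaps, 3.62 in the bodies and 5.63 in the flanks. On the main arms as a whole it was 1.33 inside protein-coding genes and 2.16 outside them. The kn and bs loci have no gap, so they enter the bodies and flanks only, and kn held 1 region in its whole window. Kind of sequence is thus partly tied to locus. Segment by segment at the spalt and Iroquois loci, the gaps had 7.35 to 11.5 regions per 100 kb, the flanks 0 to 10 and the bodies 0 to 16.4.

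The higher density in the gaps was not seen among regions in all 3 libraries, nor without replicate 3. Among the 14 regions in all 3 libraries the densities were 3.42 in gaps, 2.17 in bodies and 3.75 in flanks. Without replicate 3, 15 regions remained, of which 5 lay in gaps, with densities of 3.42 in gaps, 2.89 in bodies and 3.75 in flanks. These 15 are the regions shared by replicates 1 and 2, nearly the same set as the 14. The repeat of 3.42 is therefore not a separate check. Without replicate 1 the gap density was 7.53 and without replicate 2 it was 6.16, the highest of the 3 kinds in both cases. With each list limited to its strongest 50% by fold, 7 of 16 regions lay in gaps. The densities were then 4.79 in gaps, 2.17 in bodies and 3.75 in flanks. Replicate 3 had 21 of its 43 window peaks in the gaps, replicate 2 had 13 of 26 and replicate 1 had 12 of 29. The higher gap count of replicate 3 thus goes with more peaks in the windows as a whole. Of the 29 regions, 7 lay more than 20 kb from every member, in the middle of the 2 long gaps, and 3 of these were in all 3 libraries.

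**Figure D4:**
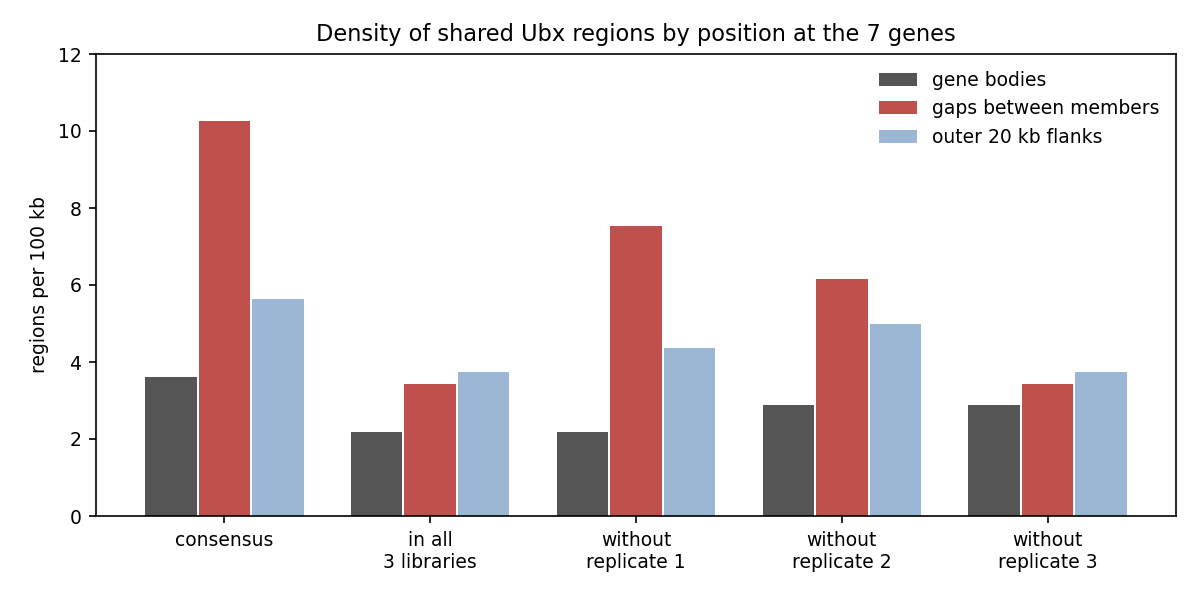
Consensus regions per 100 kb in the gene bodies, in the gaps between members and in the outer 20 kb flanks of the 4 loci, for the deposited consensus, for regions in all 3 libraries, and for regions shared by the remaining libraries when 1 is left out. Bars start at 0 and are single values with no error. The kn and bs loci have no gap and enter the body and flank bars only. The gap bar is the tallest for the consensus (10.3) and without replicates 1 and 2 (7.53 and 6.16). It is not the tallest for regions in all 3 libraries or without replicate 3 (3.42 each), which are nearly the same regions.

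The libraries recovered the sites of these loci from each other as follows. Of the 29 regions, 14 were in all 3 libraries and 15 in 2, which is 48.3% in all 3 against 42.7% of the whole consensus list. The 15 came from replicates 2 and 3 in 7 cases, from replicates 1 and 3 in 7 and from replicates 1 and 2 in 1. In the whole list these pairs numbered 762, 415 and 67. In replicate 1, 7 of the 29 peaks were recovered by no other library (24.1%; 95% Wilson interval 12.2 to 42.1%), against 51.3% of its whole list. In replicate 2 it was 4 of 26 (15.4%; 6.15 to 33.5%) against 26.1%, and in replicate 3 it was 16 of 43 (37.2%; 24.4 to 52.1%) against 46.6%. The share was below that of the whole list in each library. The intervals cover counting error only, and neighbouring peaks are not independent. The genes were also chosen with earlier results of these data known, so the intervals are not a test against the whole list.

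The peaks in the windows ran from the weakest to the strongest parts of the lists. The median percentile of fold of all peaks in the windows was 58.1, 52.1 and 40.7 in replicates 1, 2 and 3. Above the 90th percentile were 7 of 29 peaks in replicate 1, 2 of 26 in replicate 2 and 5 of 43 in replicate 3. Peaks recovered by both other libraries had medians of 74.1, 73.5 and 86.4, and those recovered by none had 40.6, 20.1 and 16.7. The 27 peaks of a single library included 1 above the 90th percentile, the replicate 1 peak in sowah, and the next lay at 66.0. In 7 cases such a peak had its summit in a member gene.

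Among the 14 regions in all 3 libraries, 6 had a mean percentile above 80. In descending order these were the regions next to mirr (98.1) and in the spalt gap (95.9), the regions 52 bp (91.8) and 4501 bp (88.8) from bs, the region at the salm edge (85.6) and the stronger region inside caup (84.6). The first 2 were above 90 in every library. The mirr region's range lies inside that of the spalt gap region, which ranked higher in replicate 3, and the ranges of the spalt gap region and the bs region at 52 bp overlap. The order of these regions is therefore not resolved by 3 libraries. The spread between libraries was uneven: the highest and lowest percentile of a region differed by as little as 1.49 and as much as 64.1, and by over 40 in 5 of the 14. The 3 summits of a region lay a median of 116 bp apart, against 71 bp for all 927 regions in all 3 libraries.

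**Figure D5:**
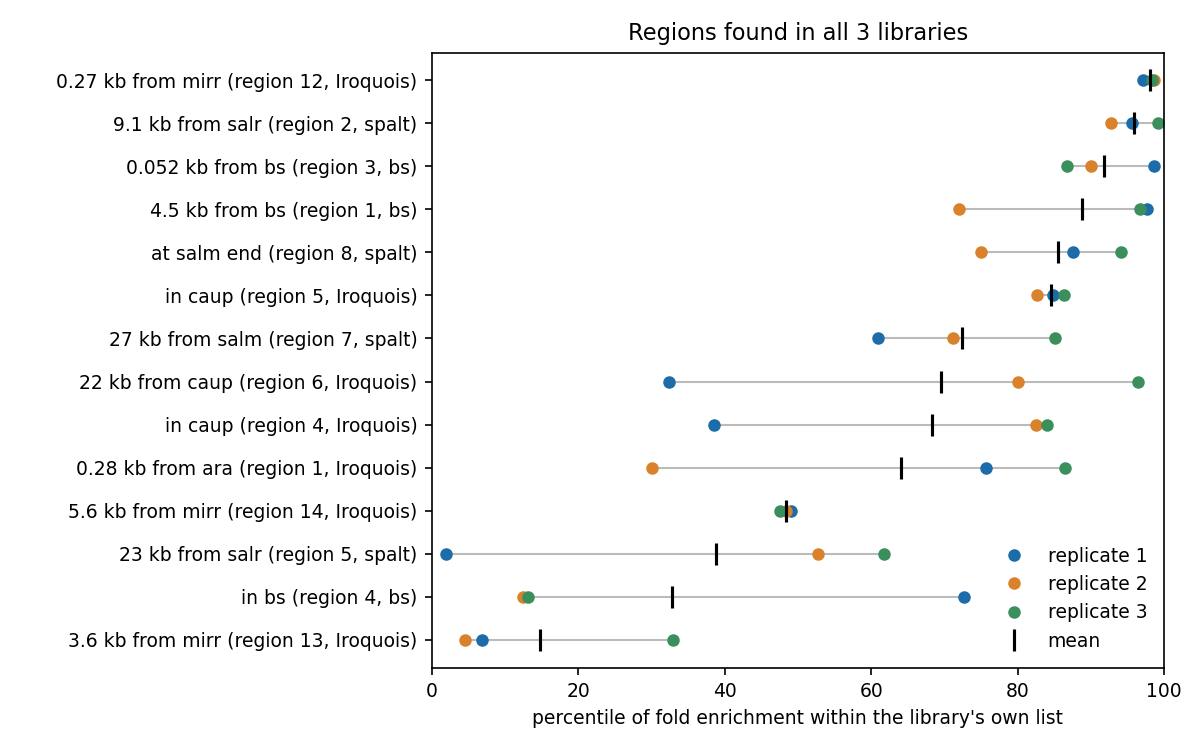
Percentile of fold enrichment within each library's own list (0 to 100, where 100 is the strongest peak) for the 14 regions found in all 3 libraries, ordered by mean. Each point is 1 library, the tick is their mean and the line is their range. The region next to mirr has all 3 points between 97.1 and 98.6, while the region 21894 bp from caup runs from 32.3 in replicate 1 to 96.4 in replicate 3.

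A wider list of 24 wing vein genes was counted in the same way, with each gene and 20 kb on both sides. Of these, 23 had a consensus region, against 29.4% of all protein-coding genes, and 18 had a region in all 3 libraries, against 15.8%. These shares were not matched for gene length either. The list was also chosen with earlier results of these data known, so the contrast is a description only. The gene fu, a kinase of the Hedgehog pathway, had no region. The median was 3.5 regions and 1 region in all 3 libraries per gene, where both medians over all genes were 0. The 4 with most regions in all 3 libraries were tkv, a Dpp receptor (6 of its 11 regions), E(spl)mbeta-HLH, a Notch target (6 of 7), Delta, a Notch ligand (5 of 9), and bi, a T-box target of Dpp (4 of 8). Consensus regions overlapping the gene body numbered 11 at tkv, 0 at E(spl)mbeta-HLH, 4 at Delta and 6 at bi. The others lay in the 20 kb flanks, and a window count does not assign them to the gene. The genes emc, vn, ptc, hh, aos and px were level with 2 regions in all 3 libraries each. Of these, emc, an inhibitor of proneural factors, and vn, a ligand of the EGF receptor, had the most consensus regions, 7 each. The vein determinants kni and knrl, neighbours that encode nuclear receptor-like factors, had 1 and 2 regions. The intervein and vein genes net and ab had 1 each, in 2 libraries. The gene ci also had 1 region. In their number of regions kni, net, ab and ci were thus level with kn.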

How the data were processed

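Peaks were called with MACS2 in 3 biological replicates, per the labels. Trimmomatic 0.36, BWA, MACS2 and the build BDGP6 (Release 6) are named in the submitters' processing notes; options, control and duplicate handling are not given in the sources used here. Each deposited peak list gives positions, a summit, a score (10 times the −log10 q-value, cut to a whole number), a fold ratio, and −log10 p-values and q-values. These per-peak values came from the authors' caller, and peaks were ranked by them only inside their own list. The authors' consensus file holds positions only, and all 2171 of its regions were rebuilt exactly as stretches covered by at least 2 of the 3 lists. No file gives read counts, so depth is unknown and a longer list is not more binding.

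Positions are 1-based on Release 6. Gene extents came from the NCBI RefSeq table of Release 6, matched by symbol, without strand, exons or UTRs; no sequence was used. A peak or region belonged to a window, and a library to a region, by an overlap of at least 1 bp; peaks were given to gene, gap or flank by summit and regions by midpoint. Where 2 peaks of a library touched a region, the one with the higher fold was used. Distances are differences between the nearest end positions. Overlap code, in Python 3.11.15 with numpy 2.4.6, pandas 2.3.3 and scipy 1.17.1, was checked on simulated lists. The 7 genes and the list of other vein genes were chosen with earlier results of these data known. All 7 were named. Of the other vein genes the rule named the 6 with most regions in all 3 libraries. A tie for the last places was broken by the number of consensus regions, an order chosen after seeing the data. The genes ptc, hh, aos, px, fu, kni, knrl, net, ab and ci were added after their values were seen. Alternatives were narrower flanks, the strongest peaks only, a larger overlap, rank by −log10 q-value and leaving out each replicate. The share in gaps and the gene-end count were added after seeing the data.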

Additional observations from a re-analysis of the deposited data

How the results depend on the processing

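The number of consensus regions in the windows was 28 with flanks of 10 kb and 24 with 2 kb. It fell to 16, with 7 in all 3 libraries and 7 in the gaps, when each list was limited to its strongest 50% by fold, where fewer peaks lower the counts by construction. Leaving out 1 replicate gave 15 to 21 regions in the windows (15 without replicate 3), all shared by both remaining libraries by construction. The gaps then held 5 to 11 regions, 9 without replicate 2 and 5 without replicate 3. Of the 7 genes, 5 to 7 kept a consensus region under these settings, and salr and kn had none with flanks of 2 kb. With at least 50% of a region covered, 13 of the regions were in all 3 libraries. The strongest region of each locus was the same by −log10 q-value, with mean percentiles of 94.7 at spalt, 97.8 at Iroquois, 92.4 at bs and 61.9 at kn. Of 82 counts for single genes and gaps, 36 changed by more than 1.5 times. All of these were decreases, but shorter flanks, fewer peaks or fewer libraries could hardly raise a count.

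Tests of sequence content were not run, because no genome sequence was used here. No paired analysis was possible because the files used hold a single group. Unknown depth limits what is said of kn and of regions in 2 libraries: no peak means only that no peak passed the threshold.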
